A study of Mus musculus with 9 samples.

Results

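Glioma lines carrying a mutant Erbb2 transgene were compared with cultured neural stem and progenitor cells (NSC) from the same region of the mouse brain. The comparison uses 3 Erbb2 arrays and 3 NSC arrays, chosen by their sample titles from the 9 arrays of the series, and covers 20690 genes with a symbol. RNA of each culture was read on an Affymetrix Mouse Gene 1.0 ST array, which probes transcripts along their length, and the deposited value per gene is a log2 expression level. The question set by the design is which genes separate a glioma line driven by an active receptor from control cultures of that region. The NSC cultures come from separate control electroporations and are not the parent cells of the lines.

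The 3 Erbb2 lines came from CD1 mice whose subventricular zone, the stem cell layer beside the lateral ventricle, was electroporated with EGFP joined through P2A to Erbb2 V664E. Every culture, controls included, also received the blue reporter TagBFPnls-V5 and the plasmid pBase. NSC 1 carried a membrane EGFP and NSC 2 an EGFP fusion of Histone 3.3, both in CD1 mice. NSC 3 had no EGFP and came from C57/Bl6 mice with a floxed Dnm2 gene. Its labels disagree on the sort, naming the blue protein in one field and purified EGFP in another. The 3 Hras lines of the series, made in CD1 mice with EGFP-Hras G12V, entered the fit for the estimate of the spread and are given beside some of the results. All cultures grew without serum, with epidermal and fibroblast growth factor, and a sort for high GFP is the 1 sort that the protocol describes. The sources used here give no age or sex of the mice, no promoter of the transgenes and no number of clones in a line. Separate animals are not stated for the cultures of a group. The p-values therefore cover only how these cultures vary, and some of that variation may be technical.

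Erbb2 is a receptor tyrosine kinase that binds no ligand of its own and works in pairs with Egfr, Erbb3 or Erbb4. V664E is known from the rat protein as a change in the membrane-spanning segment that keeps the receptor active, and its signal runs through the Ras-ERK and PI3K pathways. Neural stem cells of the subventricular zone share many genes with astrocytes and give rise to neuroblasts and to oligodendrocyte precursors, the dividing glial cells that carry the PDGF receptor Pdgfra. Each array averages over all cells of its culture, so fewer cells of a type and less RNA per cell cannot be told apart.

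Of the 20690 genes, limma called 1 higher and 1 lower in the Erbb2 lines at a Benjamini-Hochberg adjusted p under 0.05, which is 0.00483% in each direction and 0.00967% in either. At an unadjusted p under 0.05 there were 907 higher (4.38%) and 1002 lower (4.84%), and at an adjusted p under 0.10 there were 31 higher and 21 lower. Genes were also counted as lying apart where all 3 Erbb2 values were above, or all 3 below, the 3 NSC values. This held for 1054 genes higher in the Erbb2 lines (5.09%) and 2614 lower (12.6%). Many of the lower genes were dim. A limit for dim signal was set at a log2 level of 5.73, the 95th percentile of 1321 olfactory and vomeronasal receptor genes, and 53.9% of the genes lying apart below had a mean at or under it, against 4.36% of those lying apart above and 31.9% of all genes. With a difference of at least 1 log2 unit as well, 459 genes lay apart above (2.22%) and 273 below (1.32%), or 3.54% in either direction. The median difference over all genes was -0.14, which is the reference for small shifts. A positive difference was found in 7598 genes (36.7%), which is the reference for counts of positive and negative differences in a list.

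2 arrays stood apart within their groups. NSC 1 had a median receptor gene level of 4.94, against 4.18 to 4.29 in the other 5 arrays compared, and a narrower range of levels (interquartile range 2.74, against 3.23 to 3.58). Erbb2 3 lay at least 2 log2 units above both other Erbb2 lines in 311 genes and below both in 186. The same counts were 46 and 35 for Erbb2 1 and 13 and 19 for Erbb2 2. Where a result turns on either array, the value without it is given.

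**Figure D1:**
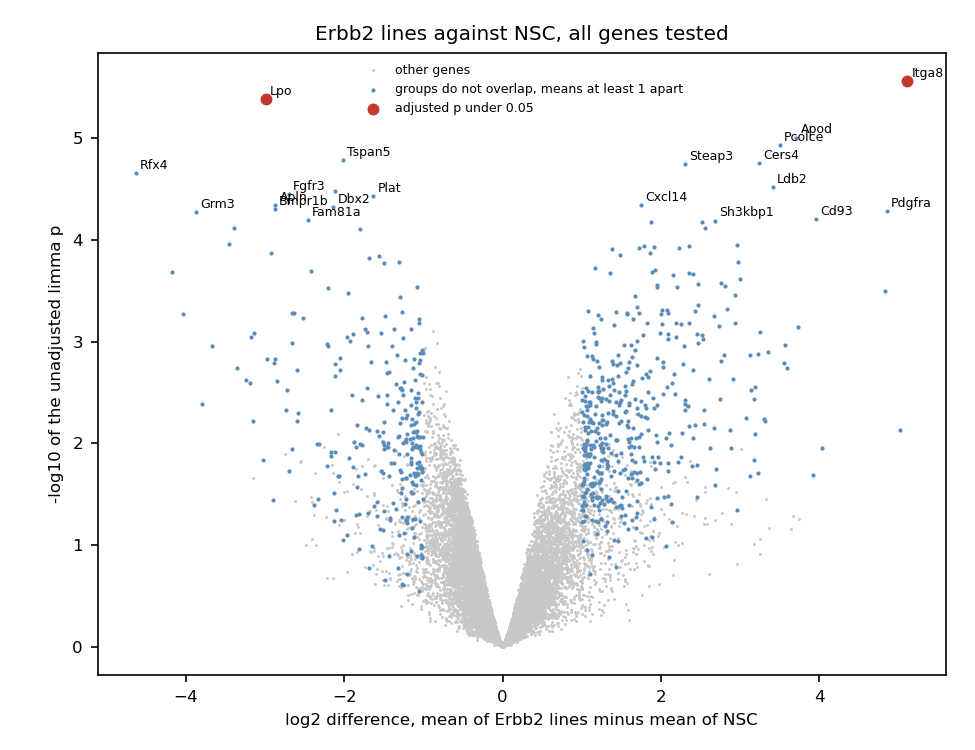
Each point is 1 of 20690 genes, with the log2 difference between the mean of 3 Erbb2 lines and the mean of 3 NSC cultures on the x axis and -log10 of the unadjusted limma p on the y axis. The 20 leading genes are named, and Itga8 on the right and Lpo on the left, in red, are the 2 with an adjusted p under 0.05.

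The level of the Erbb2 gene did not separate the lines that carry the transgene from NSC. Its log2 level was 8.24, 7 and 9.18 in Erbb2 1, 2 and 3 and 7.23, 7.74 and 7.24 in NSC 1, 2 and 3. Erbb2 3 lay above every NSC array and Erbb2 2 below every one, so the groups overlap (difference 0.74, SE 0.52, limma adjusted p = 0.614). The files do not say whether the probes of this gene read the transgene, and these levels therefore do not check the labels.

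Itga8, the integrin chain that pairs with the beta 1 chain and binds RGD-containing matrix proteins, rose in the Erbb2 lines. Its log2 level was 11.2, 10.46 and 11.43 in Erbb2 1, 2 and 3 and 6.22, 5.18 and 6.37 in NSC 1, 2 and 3. The NSC values lie around the limit for dim signal and the Erbb2 values among the bright genes, with a gap of more than 4 units between the groups. The difference was 5.11 (SE 0.50, n = 3 per group, limma adjusted p = 0.0428). The Hras lines had 10.31, 11.02 and 9.2.

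Lpo, which encodes lactoperoxidase, a peroxidase known from secretions, fell. Its level was 5.71, 5.54 and 6.52 in the Erbb2 lines against 8.72, 8.97 and 9.02 in NSC, a gap of more than 2 units, and the difference was -2.98 (SE 0.31, limma adjusted p = 0.0428). The Hras lines, at 5.71, 6.45 and 5.81, sat with the Erbb2 lines. Both calls depend on single arrays. The adjusted p of Itga8 was 0.248 without Erbb2 1, 0.0968 without NSC 1, 0.0962 without NSC 2, 0.0523 without NSC 3 and 0.0686 after quantile normalization. That of Lpo was 0.248, 0.0968, 0.108 and 0.0577 without the same arrays, 0.0637 without Erbb2 2 and 0.0508 in a fit without the Hras lines. The differences themselves kept their direction in each of these fits. Where only arrays were left out, this was fixed in advance, since the groups do not overlap.

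The other 18 leading genes lay apart by at least 1 log2 unit and missed the threshold, with adjusted p between 0.0535 and 0.0599. Among the 9 with higher values were receptors and other membrane proteins. Pdgfra, the receptor for platelet-derived growth factor A, had levels of 11.4, 10.68 and 9.06 in Erbb2 1, 2 and 3 and 5.79, 5.64 and 5.16 in NSC 1, 2 and 3 (difference 4.85). Cd93, a transmembrane receptor with a lectin domain, had 12.06, 10.78 and 11.64 against 8.43, 7.71 and 6.47 (difference 3.96). Pdgfra was at the dim limit in NSC and was lowest among the tumour lines in Erbb2 3, whereas Cd93 was above that limit in NSC. Steap3, a metalloreductase of endosomal iron uptake, differed by 2.31. Sh3kbp1, an adaptor of receptor endocytosis, differed by 2.68.

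Secreted and lipid-related products made up most of the rest. Apod, a lipocalin that carries small lipids, had 9.86, 8.83 and 8.76 in the Erbb2 lines against 5.57, 5.35 and 5.4 in NSC (difference 3.71). Pcolce, which enhances the maturation of procollagens, had 11.97, 10.99 and 11.83 against 8.23, 8.76 and 7.3 (difference 3.50). Cers4, a ceramide synthase, had 9.46, 9.11 and 10.13 against 6.57, 6.5 and 5.91 (difference 3.24). In each of the 3 genes the lowest Erbb2 line lay more than 2 units above the highest NSC array. The chemokine Cxcl14 differed by 1.75 and the LIM domain-binding factor Ldb2 by 3.41.

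The 9 genes with lower values included receptors and transcription factors of neural precursors. Rfx4, which acts in neural tube patterning and cilia formation, had 4.94, 6.34 and 5.58 in Erbb2 1, 2 and 3 and 9.33, 10.5 and 10.92 in NSC 1, 2 and 3 (difference -4.63). Dbx2, a homeobox factor of the neural tube, differed by -2.13. Grm3, a metabotropic glutamate receptor, had 4.6, 6.66 and 5.13 against 8.78, 9.59 and 9.62 (difference -3.87). For Rfx4 and Grm3 at least 2 of the 3 Erbb2 lines were at or under the dim limit while every NSC array was among the brighter genes. The FGF receptor Fgfr3 differed by -2.70 and the BMP receptor Bmpr1b by -2.87. Apln, the secreted peptide apelin, differed by -2.87, Plat, the tissue plasminogen activator, by -1.63, the tetraspanin Tspan5 by -2.01 and Fam81a by -2.46.

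**Figure D2:**
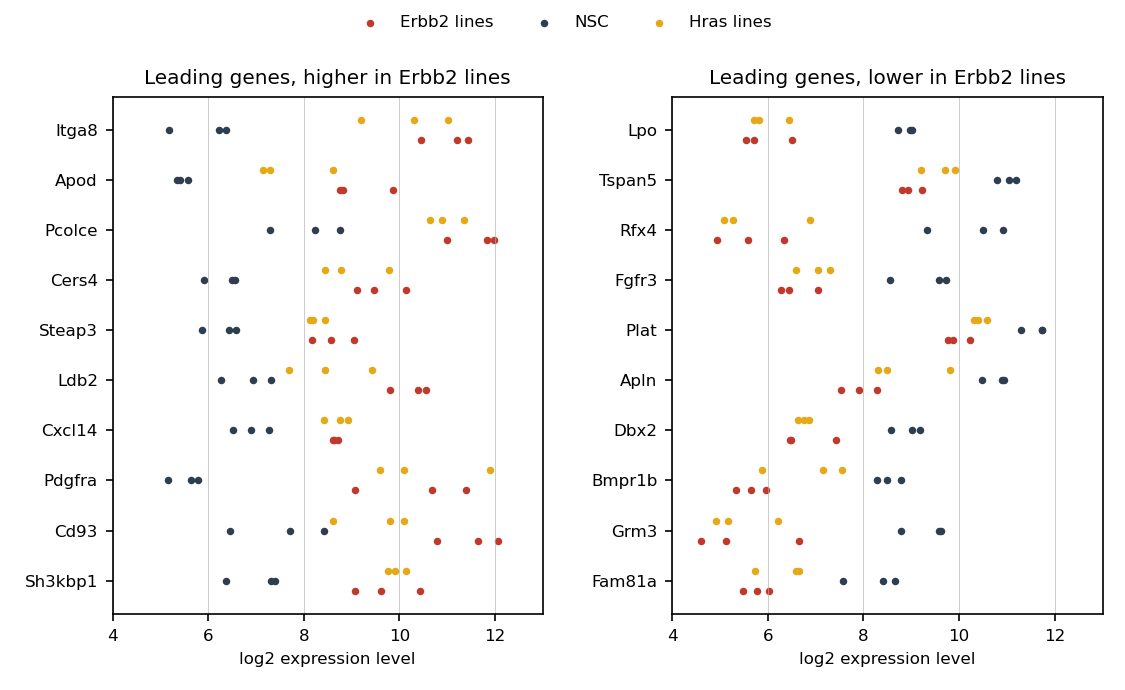
Log2 expression level (x axis) of the 10 leading genes higher and the 10 leading genes lower in Erbb2 lines, with 1 point per array for Erbb2 lines (red), NSC (dark) and Hras lines (yellow). Red and dark points do not overlap in any of the 20 genes, and the yellow points fall on the red side of the dark ones in all 20.

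The further results describe gene lists. Among the 858 measured genes of these lists Itga8 was the only call, so a list is given by how many of its members lie apart, to be read against 5.09% (higher) and 12.6% (lower) of all genes, and by its median difference against -0.14. With 1 array left out these shares of all genes were 6.28% to 11.2% higher and 14.9% to 26% lower, and after quantile normalization 6.39% and 7.62%. Counts of list members under those settings are to be read against these. Leaving out an array can only keep or raise a count of genes that lie apart, so such counts do not test it.

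**Figure D3:**
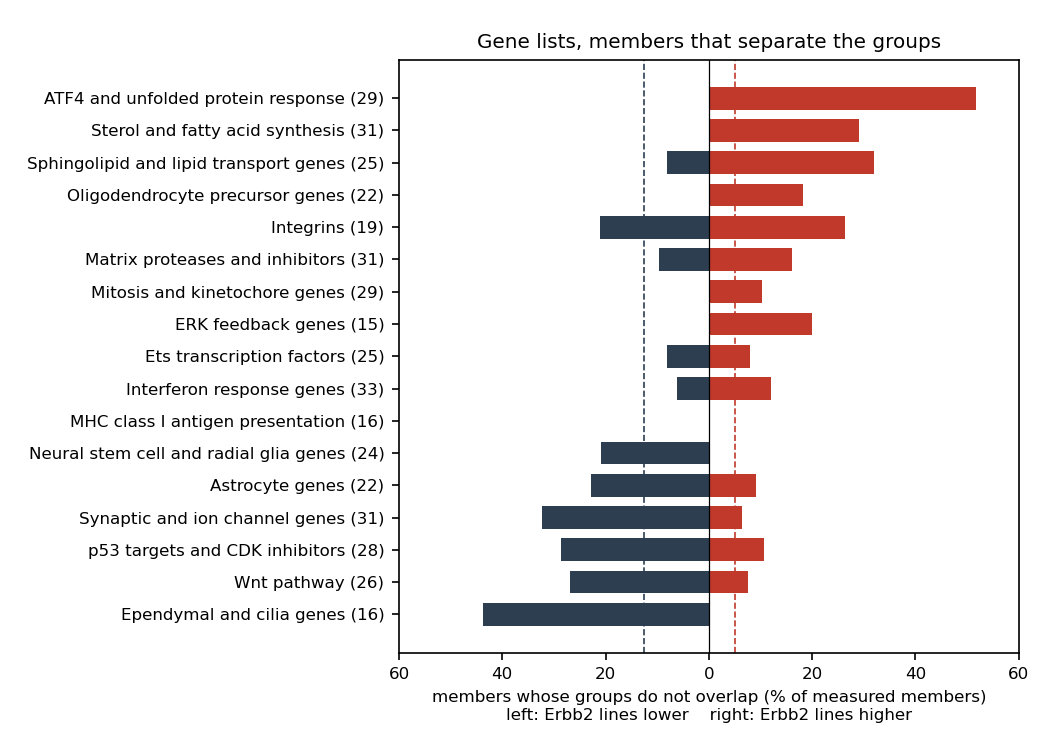
Share of the measured members of 17 gene lists (number in brackets) whose Erbb2 and NSC values do not overlap, to the right where the Erbb2 lines are higher and to the left where they are lower. Dashed lines mark the same shares over all genes, 5.09% and 12.6%, and the bar of the ATF4 list reaches 51.7%.

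In the ErbB family, Egfr had lower values in all 3 Erbb2 lines and Erbb3 higher values in 2 of them. Egfr, the receptor for the epidermal growth factor in the medium, had 5.29, 6.33 and 7.16 in Erbb2 1, 2 and 3 and 9.6, 10.71 and 11 in NSC 1, 2 and 3, a difference of -4.18 (SE 0.70, limma adjusted p = 0.0892). The groups are more than 2 units apart, and the Erbb2 lines range from dim to moderate. Erbb3, the kinase-impaired partner of Erbb2, had 11.36, 9.94 and 4.96 against 6.06, 5.1 and 5, so it was high in Erbb2 1 and 2 and no higher than NSC in Erbb2 3. The ligand Hbegf was 8.15, 8.8 and 8.68 against 8.82, 9.99 and 10.07, and Errfi1, a feedback inhibitor of the receptors, 9.23, 9.29 and 9.89 against 8.47, 8.96 and 8.65. Of the 16 family members 1 lay apart above (Errfi1, 6.25%) and 3 below (Egfr, Hbegf and the ligand gene Nrg2, 18.8%), with a median of -0.27. These shares are close to the 5.09% and 12.6% of all genes. The gap between the groups was only 0.02 in Hbegf and 0.02 in Nrg2. Without Erbb2 3, 5 lay apart above (31.2%, against 9.27% of all genes) and 4 below (25%, against 19.5%).

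Downstream of the receptor, 3 of 15 ERK feedback genes lay apart above (20%, against 5.09% of all genes) and 0 below, with a median of 0.18. After quantile normalization 2 lay apart above (13.3%, against 6.39%) and 1 below, and with array weights the median was 0.025. The MAP kinase phosphatase Dusp4 had 10.41, 8.98 and 11.13 against 7.84, 7.9 and 8.92 (difference 1.95) and the ERK inhibitor Spry4 11.92, 10.91 and 11.97 against 9.51, 10.51 and 10.85 (difference 1.31). The lowest Erbb2 line lay above the highest NSC array by only 0.06 in Dusp4 and 0.07 in Spry4. Phlda1, a gene induced by growth factors, had 11.27, 10.3 and 8.4 against 7.57, 7.96 and 8.17 (difference 2.09), and of these 3 it was the one with its lowest level in Erbb2 3. Dusp6 and Spry2, the defining members of the list, overlapped, at 11.7, 11.3 and 12.23 against 11.63, 11.81 and 11.63 and 9.83, 9.45 and 10.05 against 9.28, 9.94 and 10.16. Among 25 Ets factors, the family that the series is about, 2 lay apart above, Ets2 at 9.9, 8.69 and 8.93 against 7.4, 7.73 and 8.1 and Elk1 at 10.16, 10.09 and 10.22 against 9.07, 9.98 and 9.7, and Ehf and Spdef lay apart below by small amounts. Each direction held 8% of the 25 factors, against 5.09% (higher) and 12.6% (lower) of all genes. After quantile normalization 5 lay apart above (20%, against 6.39%) and 0 below. Without Erbb2 2, 6 lay apart above (24%, against 10.2%) and 4 below (16%, against 17.8%). The PEA3 members Etv1, Etv4 and Etv5 overlapped: Etv1 was 11.29, 10.74 and 11.35 in the Erbb2 lines against 9.65, 10.75 and 10.82 in NSC. In all 3 PEA3 genes NSC 1 or NSC 3 was the lowest array of the comparison. Of the Ras-ERK core, the kinase gene Mapk3 (ERK1) had 11.55, 10.97 and 11.85 against 9.98, 10.78 and 9.82, and the GTPase gene Rras 11.56, 11.57 and 12.73 against 10.44, 11.25 and 9.76. Both lay apart above (8% of the 25 members), whereas 4 members, Nras, Araf and Rasal2 among them, lay apart below (16%), each by less than 1 log2 unit.

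Genes of oligodendrocyte precursors were higher in Erbb2 1 and 2 and split the Erbb2 lines. Averaged over the 22 measured members, Erbb2 1 lay 1.98 above the NSC mean, Erbb2 2 1.42 and Erbb2 3 0.11. The Hras lines split as well, with 1.89, 0.99 and -0.76 in Hras 1, 2 and 3. With all arrays 17 members had a positive difference and 5 a negative one, with a median of 1.22. Apart above lay 4 members (18.2%) and apart below 0. Besides Pdgfra these were the precursor factor Nkx2-2 at 9.04, 9.26 and 9.28 against 8.01, 8.31 and 6.16, the matrix proteoglycan Vcan at 10.71, 10.12 and 10.16 against 7.5, 8.87 and 9.38 and the liprin gene Ppfibp1 at 10.3, 9.85 and 8.64 against 6.68, 7.25 and 7.46. Without Erbb2 3, 16 of the 22 lay apart above (72.7%, against 9.27% of all genes in that setting). Cspg4, the gene of the NG2 proteoglycan and a defining member, had 11.13, 9.6 and 7.78 in Erbb2 1, 2 and 3 against 6.63, 6.84 and 7.92 in NSC 1, 2 and 3.

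The lines also split in genes of the lineage's commitment and differentiation. Those named here were chosen after their values were seen. Sox10, the transcription factor of the oligodendrocyte lineage, had 11.56, 10.6 and 6.17 in Erbb2 1, 2 and 3 and 6.71, 6.25 and 6.73 in NSC. Gpr17, a receptor of committed precursors, had 9.54, 8.24 and 5.12 against 5.87, 6.04 and 5.63. In both genes Erbb2 1 and 2 were above every NSC array and Erbb2 3 below every one. Olig2, a lineage factor that neural stem cells in culture also express, was near equal throughout, at 11.05, 10.94 and 10.65 against 10.45, 11.22 and 11.2. Olig1, a further list member, overlapped with a negative difference (-0.55), at 11.72, 11.44 and 10.96 against 11.45, 12.24 and 12.09. The 16 genes of myelinating cells had a median of 0.02, with 10 above the dim limit. Their mean difference from NSC was 0.675, 0.617 and -0.192 in Erbb2 1, 2 and 3. Without Erbb2 3, 5 lay apart above (31.2%, against 9.27% of all genes) and 4 below (25%, against 19.5%).

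**Figure D4:**
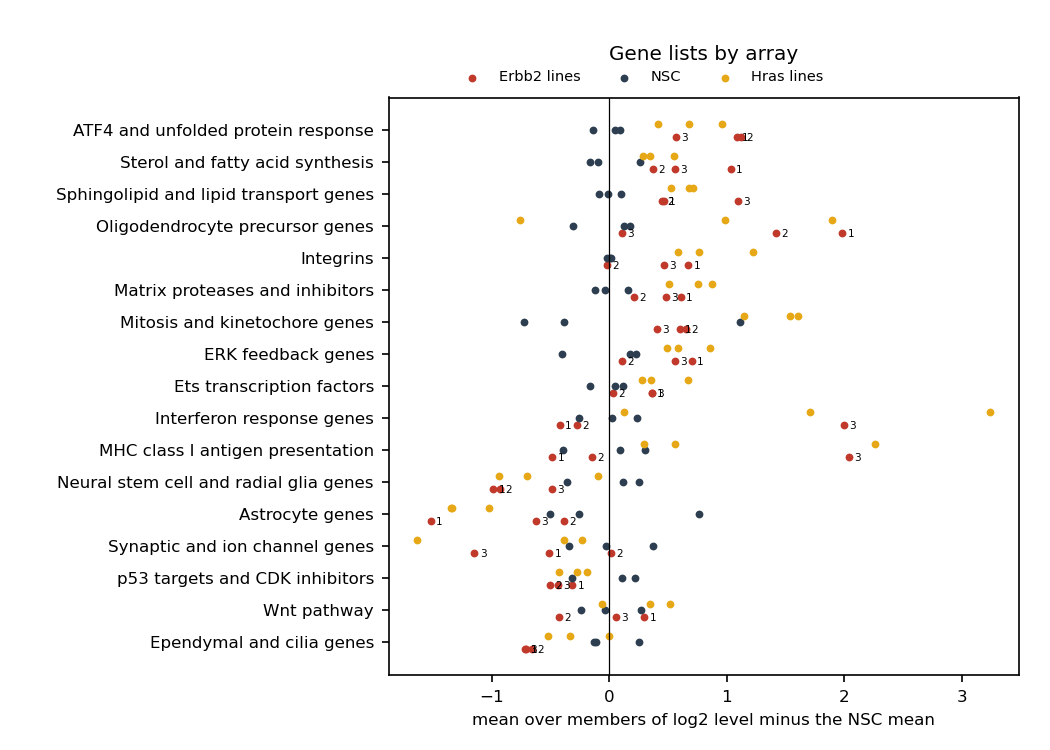
Mean over the members of 17 gene lists of the log2 level minus the NSC mean (x axis), with 1 point per array for Erbb2 lines (red, numbered), NSC (dark) and Hras lines (yellow). Erbb2 3 is at 0.11 in the oligodendrocyte precursor list and at 2.0 in the interferon list, where Erbb2 1 and 2 are below 0, and NSC 1 is at 1.12 in the mitosis list, above the Erbb2 lines.

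Neural stem cell and astrocyte genes were on the lower side in the Erbb2 lines. Of 24 stem cell and radial glia genes 0 lay apart above and 5 below (20.8%), and the median was -0.59. The difference was negative in 22 and positive in 2, where 36.7% of all genes had a positive one. Without Erbb2 3, 12 lay apart below (50%, against 19.5% of all genes), and without NSC 1, 9 (37.5%, against 14.9%). Among the 5 were Rfx4, Lfng, which modifies Notch receptors, at 6.39, 8.4 and 8.15 against 10.69, 11.12 and 10.56 (difference -3.14), the glutamate transporter Slc1a3 at 8.58, 11.5 and 11.54 against 12.18, 12.21 and 11.76, and Sox1 at 7.59, 7.42 and 7.22 against 8.22, 8.48 and 8.11. The defining members overlapped: Sox2 was 10.66, 10.52 and 10.73 in the Erbb2 lines against 10.57, 10.92 and 10.79 in NSC, and Nes 10.59, 8.94 and 8.05 against 8.58, 9.86 and 11.14. Sox2 and Nes were thus well above the dim limit on all 6 arrays.

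Of 22 astrocyte genes 5 lay apart below (22.7%) and 2 above (9.09%), with a median of -0.55. The median was -0.26 without NSC 2 and -0.32 without Erbb2 1, and 8 lay apart below without Erbb2 2 or without NSC 3. Aldh1l1, of folate metabolism and much used to mark astrocytes, had 4.96, 8.96 and 7.4 in Erbb2 1, 2 and 3 and 10.53, 11.55 and 10.61 in NSC (difference -3.79). Mlc1, a membrane protein of astrocyte endfeet, had 5.42, 9.23 and 9.35 against 10.63, 11.71 and 10.73 (difference -3.02), and the GABA transporter Slc6a11 6.02, 9.1 and 6.22 against 10.79, 11.94 and 10.68 (difference -4.03). In all 3, as in Slc1a3, Erbb2 1 was the lowest array. Gfap, the defining intermediate filament gene, overlapped at 5.41, 7.33 and 6.36 against 6.64, 8.94 and 8.4. S100b, which oligodendrocyte precursors also express, went the other way, at 9.96, 10.31 and 8.91 against 7.24, 7.85 and 6.73 (difference 2.46).

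The 16 ependymal and cilia genes had negative differences throughout, 7 lying apart below (43.8%) and 0 above, with a median of -0.41. Negative differences were the more common ones over all genes too, with 36.7% positive. Only 7 of the 16 had a mean above the dim limit, and NSC 1, the array with the raised signal of receptor genes, was the highest of the 3 NSC arrays in each of the dim ones. Its part in the count was not tested. Without NSC 1, 8 of 16 lay apart below (50%, against 14.9% of all genes), but leaving out an array cannot lower this count. The median, which can move either way, was -0.23 without NSC 1. It was -0.24 after quantile normalization. Of the brighter members, Foxj1, the master factor of motile cilia, was 6.1, 6.31 and 5.92 against 7.09, 7.39 and 6.55 and Rfx3 7.11, 6.95 and 6.93 against 7.65, 7.97 and 8.56.

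Of 31 synaptic and ion channel genes 10 lay apart below (32.3%) and 2 above (6.45%), with a median of -0.72. The AMPA receptor subunit Gria1 had 4.76, 4.93 and 6.12 in the Erbb2 lines against 8.18, 8.54 and 7.05 in NSC (difference -2.65). Gabrg1, a GABA receptor subunit chosen after its values were seen, had 6.03, 8.35 and 6.17 against 11.16, 10.2 and 8.64. Receptors for glutamate and GABA were thus among the 10 lower members. The 2 above were Grik1, a dim kainate receptor gene, and Syt4, a synaptotagmin of vesicle release, at 11.95, 11.91 and 8.43 against 5.82, 5.67 and 6.32 (difference 4.83) and lower in Erbb2 3 than in the other lines. Without Erbb2 3 the median of this list was -0.05, with 12 members apart below and 7 above, and without NSC 2 the median was -0.45.

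With all arrays and the deposited scaling, the list of ATF4 and the unfolded protein response had the highest share of members lying apart in 1 direction. In other settings different lists came first, such as the ependymal list after quantile normalization (43.8%, against 37.9% for ATF4). ATF4 is a transcription factor made when amino acids run short or the endoplasmic reticulum is stressed, and it drives genes of amino acid uptake and synthesis. Its target promoters carry an element written TGATGNAA, bound by ATF4 with C/EBP factors. Of 29 members 15 lay apart above (51.7%) and 0 below, 26 had a positive difference and the median was 1.03, with 15 at an unadjusted p under 0.05 and 0 called. Leaving out any 1 of the 6 arrays, which cannot lower the count, gave 15 to 17 apart above (51.7% to 58.6%, against 6.28% to 11.2% of all genes). Quantile normalization, which can lower it, gave 11 (37.9%, against 6.39%). By array the mean difference from NSC was 1.09, 1.12 and 0.57 in Erbb2 1, 2 and 3 and 0.42, 0.68 and 0.96 in Hras 1, 2 and 3.

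The promoters of 4 members that lay apart are shown because they hold that element. They are RefSeq windows of 300 bases on GRCm38.p6, from 250 before the transcript start to 50 after it, with the element in capitals as read on the gene's strand; in the first 3 it lies on the opposite strand.
Chac1 (chr2:119350992-119351291, + strand): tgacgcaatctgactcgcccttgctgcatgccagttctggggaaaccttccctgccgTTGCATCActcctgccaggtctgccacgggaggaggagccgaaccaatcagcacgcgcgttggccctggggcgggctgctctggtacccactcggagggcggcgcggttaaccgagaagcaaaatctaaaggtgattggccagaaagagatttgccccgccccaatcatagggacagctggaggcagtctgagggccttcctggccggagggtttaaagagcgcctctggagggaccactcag
Herpud1 (chr8:94386179-94386478, + strand): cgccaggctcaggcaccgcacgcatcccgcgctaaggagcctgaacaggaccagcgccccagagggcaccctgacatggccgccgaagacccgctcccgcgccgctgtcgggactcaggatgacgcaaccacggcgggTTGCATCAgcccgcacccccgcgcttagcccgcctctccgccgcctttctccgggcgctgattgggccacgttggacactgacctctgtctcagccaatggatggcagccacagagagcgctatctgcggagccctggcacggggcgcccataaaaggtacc
Atf3 (chr1:191183284-191183583, - strand): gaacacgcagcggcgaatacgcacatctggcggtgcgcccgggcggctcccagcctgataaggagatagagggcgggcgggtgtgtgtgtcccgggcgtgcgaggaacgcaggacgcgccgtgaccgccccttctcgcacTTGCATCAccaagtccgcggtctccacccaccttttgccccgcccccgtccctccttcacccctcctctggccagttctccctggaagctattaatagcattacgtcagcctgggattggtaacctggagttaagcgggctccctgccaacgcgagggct
Asns (chr6:7693160-7693459, - strand): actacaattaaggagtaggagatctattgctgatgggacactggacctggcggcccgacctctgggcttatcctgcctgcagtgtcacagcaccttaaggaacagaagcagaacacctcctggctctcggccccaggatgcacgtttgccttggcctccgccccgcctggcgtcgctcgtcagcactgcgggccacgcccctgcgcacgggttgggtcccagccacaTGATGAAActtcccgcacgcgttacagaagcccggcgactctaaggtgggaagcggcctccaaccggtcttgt
Searched on both strands, the element was found in a window of 1219 of 27025 genes (4.51%). In this list 8 of 27 members with a window held it: 7 of the 14 that lay apart above and 1 of the 13 others (Slc7a11, with 2). The element was chosen with the list's values known, a match is not shown to be bound, and the counts are a description.

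Chac1, which degrades glutathione, had 11.34, 10.63 and 10.09 in Erbb2 1, 2 and 3 and 7.33, 8.21 and 8.32 in NSC 1, 2 and 3 (difference 2.73, limma adjusted p = 0.146). Atf3, a stress-induced factor of the same family, had 8.77, 8.39 and 7.46 against 6.53, 6.18 and 6.15 (difference 1.92, adjusted p = 0.0892). In both genes every Erbb2 line lay above every NSC array, and Erbb2 3 was the lowest of the lines. Herpud1, of the degradation machinery of the endoplasmic reticulum, had 10.45, 10.61 and 9.75 against 8.14, 9.11 and 8.48 (difference 1.69). Atf4 itself had 10.04, 9.56 and 8.92 against 8.81, 8.19 and 8.3 (difference 1.08) and Ddit3, the stress factor CHOP, 8.95, 9.6 and 7.94 against 6.84, 7.7 and 7.15 (difference 1.60).

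The genes of amino acid supply were chosen after their values were seen. Asns, asparagine synthetase, was 12.65, 12.13 and 11.72 in the Erbb2 lines against 10.47, 10.74 and 11.52 in NSC. Mthfd2, a mitochondrial folate enzyme, was 11.11, 10.26 and 9.88 against 8.5, 8.09 and 9.72, and the amino acid transporter Slc7a5 12.95, 12.1 and 12.49 against 9.76, 11.32 and 11.89. In these 3 the NSC arrays spread more widely than in Atf3 and the groups still did not overlap. The serine synthesis genes Psat1 and Phgdh, at 10.74, 10.91 and 10.25 against 11.02, 9.94 and 10.43 and 10.91, 10.9 and 10.51 against 11.23, 10.83 and 10.37, overlapped.

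10 chaperone and folding genes of the list (Hspa5, Hsp90b1, Pdia4, Pdia6, Calr, Canx, Dnajb9, Manf, Sdf2l1 and Creld2) were grouped after their values were seen. They had differences between -0.25 and 0.98, with the highest in Creld2 and Sdf2l1, and 0 of them lay apart. Hspa5, the chaperone BiP, was 11.86, 12.36 and 11.39 in Erbb2 1, 2 and 3 and 11.95, 11.62 and 11.69 in NSC. Of the genes tied to the endoplasmic reticulum, Herpud1, Edem1 and Xbp1 did lie apart: Edem1, which marks misfolded proteins for removal, was 9.86, 10.14 and 10.05 against 8.76, 8.98 and 8.8 (difference 1.17, adjusted p = 0.0892).

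**Figure D5:**
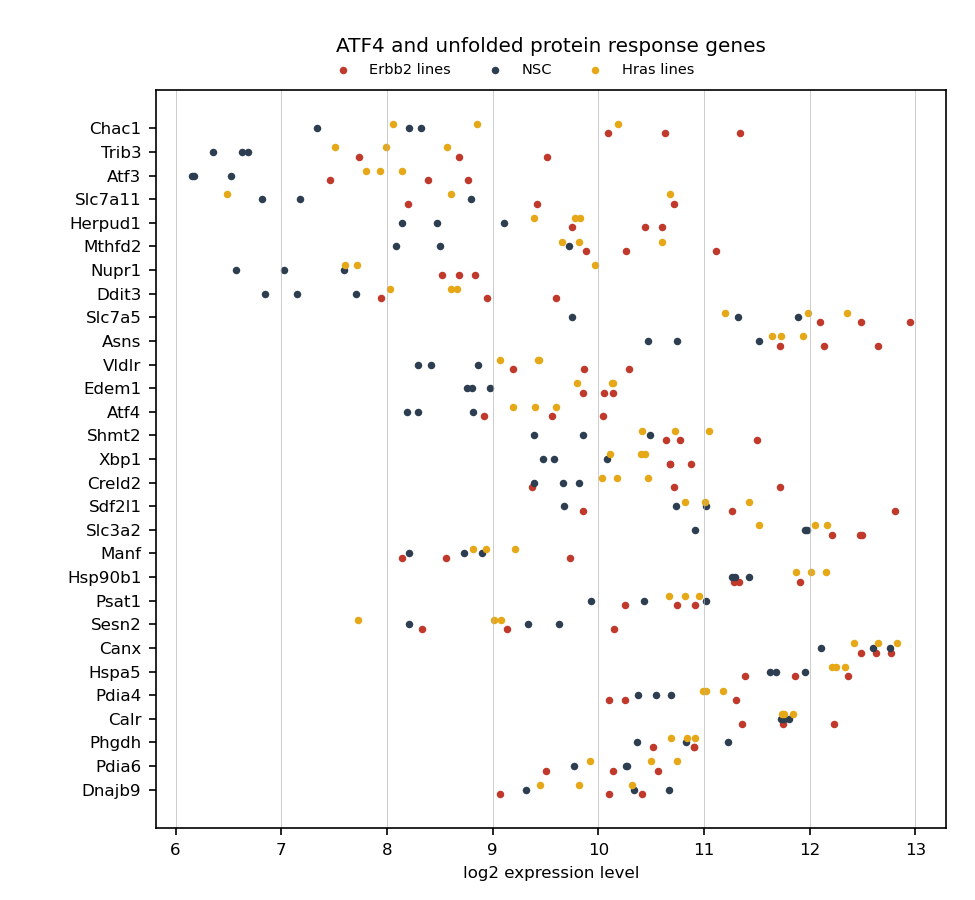
Log2 expression level (x axis) of the 29 genes of ATF4 and the unfolded protein response, ordered by the difference between Erbb2 lines and NSC, with 1 point per array for Erbb2 lines (red), NSC (dark) and Hras lines (yellow). In Chac1 at the top the groups are 2.73 log2 units apart in the mean, and in Dnajb9 at the bottom the Erbb2 mean is 0.25 below that of NSC.

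Genes of lipid synthesis and transport also leaned to higher values. Of 31 sterol and fatty acid genes 9 lay apart above (29%) and 0 below, 29 had a positive difference and the median was 0.68. The differences were small: Dhcr7, which makes cholesterol from its precursor, had 11, 10.05 and 9.97 in the Erbb2 lines against 9.05, 9.24 and 9.32 in NSC (difference 1.14), Ebp, a sterol isomerase, 8.79, 9.01 and 8.92 against 8.2, 8.2 and 7.97 (difference 0.78), and Fdps, of the isoprenoid branch, 10.39, 9.78 and 10.01 against 9.29, 8.75 and 9.65 (difference 0.83). Hmgcs1, an early enzyme of the pathway and a defining member, overlapped at 10.73, 10.27 and 10.11 against 10.95, 10.61 and 10.67. The largest difference was that of Fads3, of the desaturase family, at 9.82, 9.68 and 8.85 against 7.29, 7.29 and 6.11 (difference 2.55, adjusted p = 0.0622). After quantile normalization 6 of the 31 lay apart above (19.4%, against 6.39% of all genes), and without Erbb2 2 there were 20 (64.5%, against 10.2%). There were 14 without NSC 1 and 16 without NSC 3.

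Of 25 genes of sphingolipids and lipid transport 8 lay apart above (32%) and 2 below, with a median of 0.40. Besides Cers4 and Apod they included Abcg1, a cholesterol exporter, at 9.73, 8.3 and 10.57 against 6.9, 6.77 and 6.13 (difference 2.94), and Ugcg, which makes glucosylceramide, at 9.87, 9.42 and 9.99 against 8.87, 8.54 and 8.34 (difference 1.18). Cers2 and Cers5, further ceramide synthases, lay apart above by smaller amounts, with Cers5 at 11.62, 11.46 and 11.34 against 10.28, 10.55 and 10.78. Apoe, the main lipid carrier of astrocytes, varied within both groups, at 7.94, 11.73 and 13.04 against 9.94, 13.03 and 12.85. Cers5 and Apoe were chosen after their values were seen. The list's median was 0.05 without Erbb2 3.

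Several p53 targets were lower. Of 28 p53 targets and CDK inhibitors 8 lay apart below (28.6%) and 3 above (10.7%), with a median of -0.44. Without NSC 3, 13 lay apart below (46.4%, against 19.5% of all genes). Trp53inp1, a p53-induced stress protein, had 9.21, 9.22 and 9.39 in Erbb2 1, 2 and 3 and 11.29, 11.35 and 10.58 in NSC (difference -1.80, limma adjusted p = 0.0622). Aen, a p53-induced nuclease, had 7.59, 7.33 and 7.51 against 8.86, 8.59 and 8.89 (difference -1.30, adjusted p = 0.0828), and Btg2, an antiproliferative gene, 7.98, 7.7 and 6.64 against 9.17, 9.84 and 8.43 (difference -1.71). Both groups were tight in Aen, where the gap between them was larger than the range of either. Mdm2, the ubiquitin ligase that p53 induces and that degrades p53, was 9.22, 9.67 and 9.32 against 10.19, 9.79 and 9.75. Cdkn1a, the p21 inhibitor, overlapped at 11.38, 10.72 and 11.15 against 10.8, 11.84 and 11.14, and Plk2, a kinase gene that is a p53 target, was higher, at 10.8, 10.26 and 11.28 against 9.63, 9.46 and 9.66 (difference 1.20). The gene of p53 itself, Trp53, lay apart above, at 10.57, 10.38 and 10.93 against 9.05, 9.94 and 10.11, and was chosen after its values were seen.

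Mitosis genes depended on NSC 1. Of 29 mitosis and kinetochore genes 28 had a positive difference and 3 lay apart above (10.3%), with a median of 0.55. The mean over the list, relative to the NSC mean, was 0.60, 0.66 and 0.40 in Erbb2 1, 2 and 3 and 1.12, -0.39 and -0.73 in NSC 1, 2 and 3. Without NSC 1, 26 of 29 lay apart above (89.7%, against 11.2% of all genes) and the median was 1.12, while without NSC 3 the median was 0.16. Without Erbb2 2, 8 lay apart above. Plk1, a mitotic kinase, was 10.57, 9.82 and 10.14 against 9.49, 9.19 and 8.56 (difference 1.10), and Cdk1, the kinase that starts mitosis, 10.21, 10.54 and 9.87 against 10.81, 9.39 and 9.38. NSC 1 was the highest array of the 6 for Cdk1 and not for Plk1. The 31 replication genes had a median of 0.08, with 0 apart above.

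Integrin chains lay apart in both directions. Of 19 measured chains 5 lay apart above (26.3%) and 4 below (21.1%), and without Erbb2 1 there were 5 and 7. Besides Itga8, the chains above were Itga1, a collagen receptor chain, at 9.75, 7.95 and 9.26 against 6.32, 6.38 and 5.77 (difference 2.83), Itga4 at 10.97, 10.1 and 8.97 against 7.66, 6.86 and 7.09 (difference 2.81), Itga9 at 8.85, 7.84 and 7.55 against 5.89, 5.31 and 5.99 (difference 2.35) and the shared partner Itgb1. Itga8, Itga1, Itga4 and Itga9 all pair with the beta 1 chain. Itgb8, a chain that activates TGF-beta in the stem cell region, was lower, at 8.67, 9.45 and 8.86 against 10.23, 11.45 and 10.92 (difference -1.88), and the other 3 chains below were close to the dim limit. Itga6, a laminin receptor chain of neural stem cells, was 9.31, 8.43 and 6.33 against 9.39, 10.05 and 8.84 and was chosen after its values were seen.

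Of 31 matrix proteases and inhibitors 5 lay apart above (16.1%) and 3 below (9.68%). Without Erbb2 2 or without NSC 2, 10 lay apart above (32.3%, against 10.2% and 8.38% of all genes), and without Erbb2 3, 8. Adamts5, which cleaves the proteoglycans of the brain matrix, had 8.5, 7.87 and 7.92 in the Erbb2 lines against 5.38, 5.03 and 4.97 in NSC (difference 2.97, adjusted p = 0.0828), and Adamts1, a related protease, 10.18, 9 and 7.24 against 6.19, 6.88 and 6.69 (difference 2.22). Lama4, a laminin chain of vessel basement membranes, had 9.86, 8.96 and 9.04 against 6.3, 7.27 and 5.41 (difference 2.96, adjusted p = 0.0743). Adamts5 was under the dim limit in every NSC array and similar in the 3 lines, while Adamts1 was lowest in Erbb2 3. Of 30 collagen and basement membrane genes 2 lay apart above (Pcolce and Lama4, 6.67%) and 7 below (23.3%), all 7 by less than 1 log2 unit. Without Erbb2 3, 11 lay apart below (36.7%, against 19.5% of all genes).

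Interferon and antigen presentation genes were high in Erbb2 3 alone among the Erbb2 lines. Over 33 interferon response genes the mean difference from NSC was -0.42, -0.28 and 2.0 in Erbb2 1, 2 and 3, and over 16 genes of MHC class I presentation it was -0.49, -0.14 and 2.04. The pattern was not particular to Erbb2 3. In Hras 1, 2 and 3 these means were 0.13, 1.70 and 3.24 for the interferon genes and 0.30, 0.56 and 2.26 for the MHC genes. Irf7, a transcription factor that interferon induces, had levels of 5.3, 4.99 and 8.34 in Erbb2 1, 2 and 3 and 5.66, 5.42 and 5.61 in NSC 1, 2 and 3. H2-K1, a class I heavy chain, had 7.29, 7.78 and 11.21 against 9.03, 8.82 and 6.4. In both genes Erbb2 3 stood more than 2 units above the 5 other arrays and Erbb2 1 and 2 were not above the NSC mean. Without Erbb2 3 the medians of the lists were -0.34 and -0.44, against 0.51 and 0.46 with it. 4 interferon genes lay apart above in all 3 lines, among them Ifi35, at 7.5, 7.72 and 8.62 against 6.42, 5.75 and 5.61 (difference 2.02).

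The same line led the genes that most separate the Erbb2 lines from each other. The largest gaps above the other lines were in Trim30a, an interferon-induced gene, at 4.81, 4.77 and 10.71 in Erbb2 1, 2 and 3, and in Ass1, which makes arginine from citrulline, at 6.72, 6.06 and 11.95. Lcn2, an iron-binding lipocalin, was 5.37, 9.27 and 12.86, lowest in Erbb2 1 and highest in Erbb2 3. The largest gaps below were in Scrg1, at 11.36, 11.6 and 5.08, and Gng3, a G protein subunit of neurons, at 11.77, 11.28 and 5.14. Erbb2 1 stood out for Postn, a matrix protein, at 10.36, 5.48 and 4.56, and for the low level of Slc4a4, a bicarbonate transporter of astrocytes, at 4.96, 8.86 and 9.33. Erbb2 2 stood out for Nts, neurotensin, at 5.52, 8.5 and 4.35. Trim30a was under the dim limit in Erbb2 1 and 2, and Scrg1 and Gng3 were under it in Erbb2 3.

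The defining markers of microglia, endothelium and choroid plexus were at or near the dim limit in both groups. Of microglia, Aif1 was 4.66, 4.46 and 4.73 in Erbb2 1, 2 and 3 and 4.9, 4.56 and 5.04 in NSC 1, 2 and 3, and Csf1r 5.38, 5.03 and 5.2 against 5.75, 5.27 and 5.54. Of endothelium, Pecam1 was 5.34, 4.99 and 5.21 against 5.72, 4.98 and 5.24, and Cdh5 4.91, 5.07 and 4.88 against 5.52, 5.03 and 5.08. These 4 genes were below the dim limit of 5.73 on every Erbb2 array, and on every NSC array but NSC 1 for Csf1r. Of 18 microglial markers 1 lay apart above (5.56%) and 5 below (27.8%), against 5.09% and 12.6% of all genes. Only 5 of the 18 had a mean above the dim limit. The mean level of the list was 5.28 to 5.42 in the Erbb2 lines and 5.32 to 5.76 in NSC. Of 16 endothelial markers 2 lay apart above, Ramp2 and Ly6c1 (12.5%), and 4 below (25%). A mean above the dim limit was found in 8 of the 16. The list's mean level was 5.52 to 5.85 in the Erbb2 lines and 5.54 to 6.0 in NSC. Of 11 choroid plexus markers 0 lay apart above and 3 below (27.3%), and 4 of the 11 had a mean above the dim limit. Ttr, the defining gene, was at 5.37, 5.85 and 4.92 against 5.56, 5.31 and 5. Of 18 pericyte and fibroblast markers 1 lay apart above (5.56%) and 5 below (27.8%). Prrx1 was 11.43, 11.06 and 11.73 in the Erbb2 lines against 8.66, 7.54 and 9.74 in NSC (difference 2.76). The smooth muscle actin Acta2 was 6.36, 6.74 and 6.24 against 9.75, 10.08 and 8.27 (difference -2.92, limma adjusted p = 0.0767) and Tagln 5.71, 6.04 and 4.93 against 8.71, 7.72 and 6.86.

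Set against the Hras lines, the Erbb2 lines differed in 0 of the 231 named genes and in 0 of all 20690 genes (0.0%) by limma at an adjusted p under 0.05, with a smallest adjusted p of 0.391. At an unadjusted limma p under 0.05 there were 2625 of the 20690 genes, against 1909 between Erbb2 lines and NSC. The median level over all genes was 6.98 to 7.19 on the Hras arrays and 6.56 to 6.73 on the Erbb2 arrays. The part of this offset in the count of 2625 was not tested. In each of the 20 leading genes the 3 Hras lines lay on the same side of NSC as the Erbb2 lines, without overlap with NSC. Both comparisons share the NSC arrays, and the Hras lines took part in the fit. 4 of the 20 differed by at least 1 log2 unit between the tumour groups: Cd93 was higher in the Erbb2 lines by 1.99, Ldb2 by 1.73 and Apod by 1.47, and Bmpr1b was lower by 1.21, each with an adjusted p of 0.391. Cd93 had 10.1, 8.61 and 9.8 in the Hras lines, and Ldb2 9.42, 8.45 and 7.69, both below every Erbb2 line.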

How the data were processed

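RNA of 9 cultures was labelled with biotin and hybridised to 1-colour arrays, per the labels' protocols. The authors deposited a table of log2 expression levels for 20715 gene rows and a table of linear intensity values for 35511 probe sets. The sources used here do not give the background correction, the normalization or how 1 probe set was taken for a gene. To within 1e-04 log2 units, 20106 genes equal the log2 intensity of 1 probe set, 65 that of several and 519 that of none. Of the rows, 25 with a number for a symbol were left out, and 0 value columns lacked a sample. Array medians and spreads differ, so a difference between groups can hold an offset of a whole array.

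A group-means model was fitted over the 9 arrays and 20690 genes with limma 3.58.1 in R 4.3.3 (lmFit and eBayes), with Benjamini-Hochberg adjustment over all genes at 0.05. Samples were grouped by title. The number of arrays, 3 per group, limits the precision. The protocols state no block, and the numbers were not taken as pairs. Same-numbered Erbb2 and NSC arrays deviated together with correlations of -0.22, -0.18 and 0.08. The model was tested on simulated data. The members, the gene lists and the promoter element were chosen with earlier results of these data known, and 906 of 912 list entries matched a row. Leading genes are the called genes, filled to 10 in each direction with the smallest unadjusted p among named, bright genes that lie apart by at least 1 log2 unit. From each list the first 2 members and up to 4 that lie apart were taken, with fixed genes (the ErbB, PEA3, Hras and sex-linked genes, Dnm2 and Pdgfra) and the 5 genes per Erbb2 line with the largest gap to the others in each direction. Alternatives were quantile normalization, centring, a filter on dim genes, the 6 arrays alone, a replicate block, an intensity trend, array weights, the probe set table and each array left out. A few genes are not reported here.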

Additional observations from a re-analysis of the deposited data

How the results depend on the processing

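The counts of 1 gene called higher and 1 lower moved with most choices. They were 0 and 1 after quantile normalization, 3 and 1 without dim genes, 6 and 2 with the Erbb2 and NSC arrays alone, 4 and 3 with an intensity trend, 22 and 15 with array weights, and 0 and 0 in the probe set table, where 3553 of 35511 probe sets had an unadjusted limma p under 0.05. Leaving out 1 array gave 0 to 11 higher and 0 to 2 lower, with both counts at 0 without Erbb2 1, NSC 1 or NSC 2. The cause was not tested. Array weights gave NSC 1 a weight of 0.288. With the replicate number as a block, 15 and 12 were called. Same-numbered Erbb2 and NSC arrays correlated at -0.22, -0.18 and 0.08. Those of Erbb2 and Hras correlated at 0.34, -0.34 and 0.44, and those of Hras and NSC at 0.12, 0.25 and -0.10. With 3 arrays per group these values cannot show whether the numbers mark a shared factor. The 67 log2 differences printed for single genes kept their sign in each gene-level fit, except that Otx2 was not in the fit without dim genes. For genes that lie apart, leaving out or weighting arrays cannot reverse the sign, so those fits do not test it. They were not computed in the probe set table. The count of 0 named genes between Erbb2 and Hras lines was 0 in each gene-level limma fit that held the Hras arrays. These alternatives of that count, and the counts of list members that lie apart, were chosen after seeing the data. Over the settings, list medians kept their sign for the ATF4 (0.86 to 1.15), sterol (0.44 to 0.73), oligodendrocyte precursor (0.66 to 1.61), stem cell (-0.81 to -0.45) and p53 (-0.65 to -0.30) lists. The median difference over all genes was -0.14 in the fit reported, -0.03 after quantile normalization and -0.21 to -0.04 with 1 array left out. Levels near the dim limit of 5.73 carry little information on differences.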

Other observations

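Homeobox genes, which set regional identity along the brain, lay apart in both directions. Of 34 measured members 7 lay apart above (20.6%) and 6 below (17.6%), against 5.09% and 12.6% of all genes. The larger excess over all genes was thus on the higher side. Nkx2-2, given with the oligodendrocyte precursor genes, is among the 7 above. The genes given next are from the lower side. Otx2, a factor of the forebrain and choroid plexus, had 4.7, 4.86 and 4.65 in Erbb2 1, 2 and 3 and 7.78, 7.59 and 6.07 in NSC 1, 2 and 3 (difference -2.41). Meis1, a cofactor of Hox proteins, had 6.49, 6.23 and 7.08 against 7.32, 8.27 and 8.9 (difference -1.56). Otx2 was under the dim limit in the 3 Erbb2 lines and above it on every NSC array.

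Of 26 Wnt pathway genes 7 lay apart below (26.9%) and 2 above (7.69%), against 12.6% and 5.09% of all genes. Without Erbb2 2, 7 lay apart below (26.9%, against 17.8%) and 6 above (23.1%, against 10.2%). The ligand gene Wnt5a had 5.66, 5.49 and 7.4 in Erbb2 1, 2 and 3 and 8.64, 10.11 and 8.72 in NSC 1, 2 and 3 (difference -2.97), and the receptor gene Fzd3 8.49, 8.51 and 7.87 against 9.16, 10.04 and 9.67 (difference -1.33). Wnt7a and Wnt7b, ligand genes of neural progenitors, also lay apart below. Among cytokines, Il33, an alarmin that glia express, had 10.31, 9.22 and 11.13 against 6.87, 6.25 and 6.91 (difference 3.55), with no overlap. Unc5c, a netrin receptor, had 7.99, 9.02 and 8.77 against 6.25, 5.73 and 5.43 (difference 2.79), while the ephrin receptor Epha5 had 5.88, 6.56 and 4.95 against 7.73, 8.38 and 7.61 (difference -2.11). Nrn1, a neurite outgrowth factor, had 5.89, 5.19 and 6.18 against 8.91, 8.21 and 10.32 (difference -3.39), the lowest value among the neuroblast and neuronal genes.

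The sex-linked genes varied from culture to culture within groups. Xist, the RNA that silences an X chromosome, was 3.97, 10.21 and 3.97 in Erbb2 1, 2 and 3 and 7.08, 10.39 and 7.09 in NSC 1, 2 and 3. The Y-linked Ddx3y was 7.51, 4.3 and 8.45 against 7.89, 5.33 and 8.06. Erbb2 2 and NSC 2 were high for Xist and low for Ddx3y, Erbb2 1 and 3 the reverse, and NSC 1 and 3 were intermediate for Xist with high Ddx3y. The sex of the animals is not in the labels used here.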
